A study of Mus musculus with 3 samples.

Results

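B cell and immunoglobulin genes were followed in the aortas of Plk1(+/-) mice through 9 genes: Ighg, Cd79a, Cd79b, Cr2, Cd22, Cd72, Ms4a1, Blk and Pou2af1. The genes were taken by name, with earlier results of these data known. Every non-control probe that carried one of these names, or an accession whose current name was one of them, was used. This gave 15 of 41174 probes, and 9 of the 22043 features measured, a feature being a gene represented by its brightest probe or a probe without a gene symbol. The tested samples were 3 individual aorta samples, labelled as biological replicates 1, 2 and 3 of Plk1(+/-), and they were set against 1 pool made from 3 wild-type (WT) aorta samples. All mice were of strain 129/CD1 and 3 to 5 months old. Plk1 encodes polo-like kinase 1, which drives entry into and passage through mitosis, and the question was how expression in the vessel differs when 1 copy is mutated. How the Plk1 allele was made is not given in the sources used here. On each of 3 two-colour arrays of 1 slide a Plk1(+/-) sample carried Cy5 and the WT pool carried Cy3, with no dye swap, so dye and genotype cannot be told apart.

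The receptor of a B cell is a membrane immunoglobulin, made of heavy and light chains, that binds antigen and is coupled to the cell interior by the CD79a and CD79b proteins. Coreceptors on the same membrane raise or damp its signal, Src-family kinases start the signal inside, and after activation some B cells become plasma cells that secrete the immunoglobulin as antibody. In arteries, B cells are known mainly from the adventitia and the fat around the vessel, where they can form lymphoid clusters together with T cells. All values come from whole tissue, so more cells of a type and more RNA per cell cannot be told apart.

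The probe sequences are shown for the genes whose probes gave unlike or linked readings, because each reading belongs to a stretch of RNA and not to the whole gene. All probes are 60 bases long, are written 5′ to 3′ and were placed on build mm7 by the array design, and their exon or UTR position was not analysed here. The 3 Ighg probes share at most 7 bases in a row with each other. Capitals mark a run also present in a probe of another immunoglobulin heavy chain name, Igh for the first, and both Igh-1a and Ighg1 for the third. The second has no shared run over 8 bases and carries no capitals. The files do not say which heavy chain segment each probe lies in.
Ighg A_51_P117903, chr12_random:5420526-5420584, plus strand: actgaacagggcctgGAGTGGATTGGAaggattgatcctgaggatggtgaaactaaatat
Ighg A_51_P275642, chr12:111380688-111380747, minus strand: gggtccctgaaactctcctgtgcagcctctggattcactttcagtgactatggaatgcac
Ighg A_52_P74106, chr12_random:5421654-5421713, plus strand: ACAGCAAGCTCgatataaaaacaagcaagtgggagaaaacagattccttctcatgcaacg

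The Cd72 probes share 32 bases, marked by capitals, so they are not independent readings. The second one spans 2145 bases in mm7, more than its own length, and is therefore split on the genome.
Cd72 A_51_P292736, chr4:43463984-43464037, minus strand: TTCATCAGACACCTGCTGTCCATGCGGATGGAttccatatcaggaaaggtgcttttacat
Cd72 A_52_P14600, chr4:43464012-43466156, minus strand: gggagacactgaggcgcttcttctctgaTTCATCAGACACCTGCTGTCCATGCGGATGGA

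The paired probes of Cd22 and of Cr2 share at most 6 and 5 bases in a row, carry no capitals, and start 9553 and 22178 bases apart. The first probe of each pair is the brighter one.
Cd22 A_51_P448140, chr7:27806351-27806410, minus strand: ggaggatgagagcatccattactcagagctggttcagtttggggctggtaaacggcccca
Cd22 A_52_P466268, chr7:27815904-27817228, minus strand: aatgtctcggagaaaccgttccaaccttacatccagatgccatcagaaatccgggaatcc
Cr2 A_51_P208525, chr1:194695473-194695532, minus strand: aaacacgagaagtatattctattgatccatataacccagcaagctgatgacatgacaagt
Cr2 A_52_P490788, chr1:194717651-194717710, minus strand: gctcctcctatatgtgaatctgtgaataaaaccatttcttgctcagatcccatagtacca

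Signal was well above background for 77.0% to 80.8% of probe spots in Cy5 and 66.0% to 69.0% in Cy3. Precision is limited by there being 3 arrays. The median mean signal was 335 to 357 in Cy5 and 155 to 165 in Cy3, a dye offset that normalization within each array took out. All 14 listed smooth muscle genes and all 12 listed endothelial genes were measured. So were all 10 skeletal muscle, all 10 fat and all 18 T cell genes listed, so being measured does not check the tissue label. Plk1 did not check the labels, since its log2 ratio was -0.06, -0.08 and 0.42 in Plk1(+/-) samples 1, 2 and 3 over the WT pool, averaging 0.10 ± 0.28 (SD, n = 3; limma adjusted p = 0.705). The samples are therefore called by their labels throughout.

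As a group, the 9 genes read far above the WT pool in Plk1(+/-) samples 2 and 3, and close to it in sample 1. Their median log2 ratio was 0.09 in sample 1, 1.36 in sample 2 and 2.07 in sample 3, against 0.04, 0.01 and 0.04 for all features. A log2 ratio above 1, a doubling over the pool, was read for 0 of 9 genes in sample 1, 6 in sample 2 and 7 in sample 3, where 1.5%, 1.29% and 2.81% of all features without a saturated spot did so. The same 6 genes were above 1 in both samples 2 and 3, namely Ighg, Cd79b, Cd22, Cd72, Ms4a1 and Pou2af1, and 0.99% of these features were. All 9 genes were lowest in sample 1 and highest in sample 3, an order that 22.2% of these features had. The 9 were chosen with earlier results of these data known, so the shares beside them are a description alone.

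None of the 9 passed the test over samples. In limma, with Benjamini-Hochberg adjustment over all 22043 features, 0 of 9 were called at an adjusted p under 0.05, where 0.925% of all features were called. As higher, 0.0363% of all features were called, or 0.0372% of those without a saturated spot. Of the 204 calls over all features, 172 were at features with a saturated spot, which none of the 9 had. The adjusted p of the 9 ran between 0.176 and 0.383. At an unadjusted p under 0.05, 5 of 9 were higher (Blk, Cd72, Cd79b, Ms4a1 and Cd22), and 0 were lower, against 9.33% higher and 8.49% lower (17.8% in either direction) of the features without a saturated spot. Above the pool on all 3 arrays were 6 of 9, against 26.8%, and below it on all 3 were 0, against 17.9%. The mean log2 ratio was above 1 for 6 of 9, against 0.855%. Leaving out sample 1 moved the median of the 9 mean log2 ratios to 1.71, and leaving out sample 3 to 0.72, against 1.17 with all 3. When arrays were centred on their median and not normalized by loess, which moves the median of all features to 0.23, Cd79b (mean log2 ratio 2.06, limma adjusted p = 0.0445) and Cd72 (1.41, 0.0375) passed. That setting called 7152 of all 22043 features as higher, a larger share than 2 of 9.

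**Figure D1:**
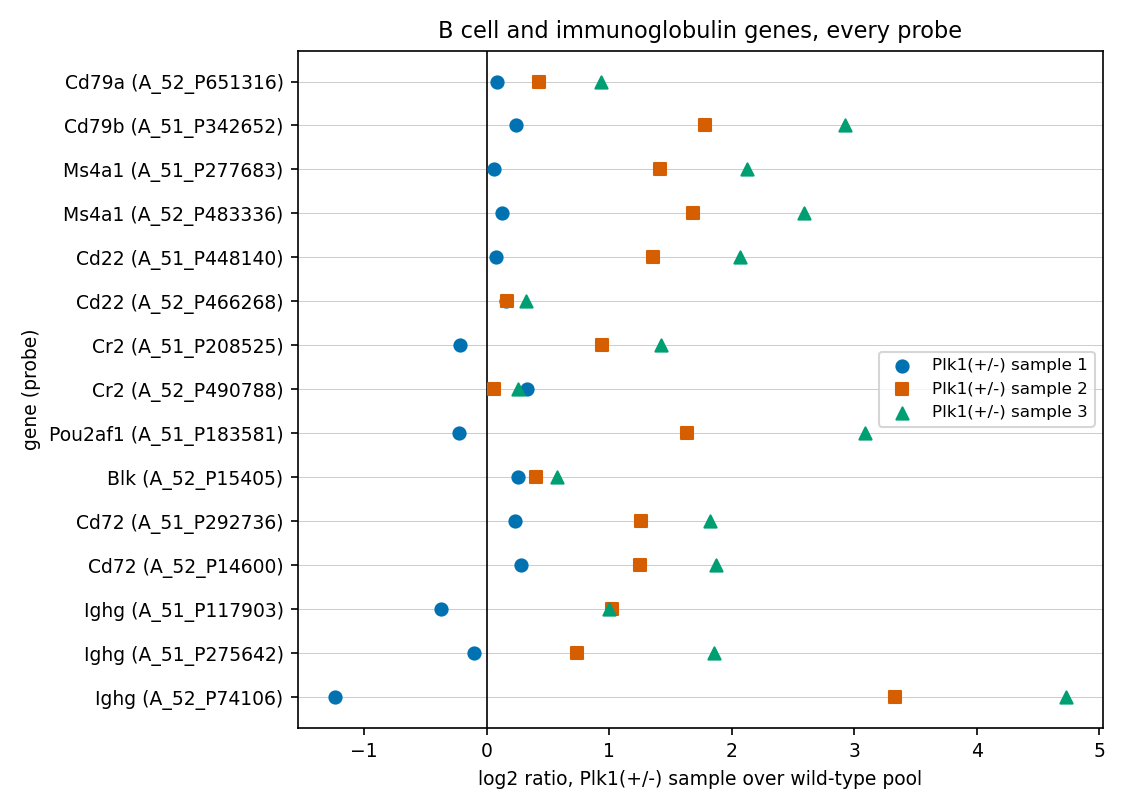
Log2 ratio of each Plk1(+/-) sample over the WT pool (x axis) for all 15 probes of the 9 genes (y axis), with 1 symbol per sample. Sample 1 lies between -1.24 and 0.33 for every probe, and samples 2 and 3 reach 3.33 and 4.73 on the third Ighg probe.

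Ighg, a name for the heavy chain of the IgG class of antibody, had the widest values of the 9. Its brightest probe, A_52_P74106, read 407, 16475 and 58020 in Cy5 for Plk1(+/-) samples 1, 2 and 3, against 424, 656 and 783 in Cy3 for the WT pool on the same arrays. The log2 ratios were -1.24, 3.33 and 4.73, which is 0.424-fold, 10.1-fold and 26.6-fold the pool. Sample 1 was thus below the pool and the other two far above it, and 99.99% of features without a saturated spot had a smaller range. The mean was 2.27 ± 3.12 (SD, n = 3; limma adjusted p = 0.383), and it was 4.03 without sample 1 and 1.05 without sample 3. The further probes named Ighg kept the sign in each sample with smaller values. Their heavy chain segment is not given, so they need not read IgG alone. A_51_P275642 read -0.10, 0.74 and 1.85 in samples 1, 2 and 3. A_51_P117903 read -0.37, 1.02 and 1.00, but the pool was not well above background on any array at that probe. A bound was set there from the lowest signal well above background on each array or, if higher, the signal of the pool. At this probe the bound equalled the plain mean log2 ratio of 0.55, which is 1.46-fold. The lowest signal thus did not enter, and the value is open to dye bias.

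Cd79b and Cd79a encode the paired signalling chains of the B cell receptor. Cd79b read 2430.0, 7693 and 14869 in Cy5 for Plk1(+/-) samples 1, 2 and 3, against 838.5, 897 and 715 in Cy3 for the WT pool, and the log2 ratios were 0.24, 1.79 and 2.93. All 3 samples were above the pool, sample 1 by little, and sample 3 was 7.62-fold the pool. The mean was 1.65 ± 1.35 (SD, n = 3; limma adjusted p = 0.236), or 2.36 without sample 1 and 1.01 without sample 3. Cd79a was dimmer, with Cy5 signals of 222, 316 and 406 in Plk1(+/-) samples 1, 2 and 3, against 119, 119 and 108 in Cy3 for the WT pool. Its log2 ratios of 0.09, 0.43 and 0.94 kept the order of Cd79b at smaller sizes, and its mean was 0.48 ± 0.43 (SD, n = 3; limma adjusted p = 0.268). Without sample 3 that mean was 0.26, and the ratio of sample 1 was -0.11 with the scanner log ratio and -0.04 with median centring.

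The coreceptors and surface molecules of B cells differed in size but had 1 order of the samples at their brightest probes. Ms4a1 encodes CD20, the target of antibodies that deplete B cells. Its brighter probe read 1000, 4103 and 6582 in Cy5 for Plk1(+/-) samples 1, 2 and 3, against 395, 527 and 418 in Cy3 for the WT pool. The log2 ratios were 0.13, 1.68 and 2.59, and the further probe, which lies 460 bases away and shares at most 5 bases in a row with it, read 0.06, 1.42 and 2.13. Sample 1 was near the pool at both Ms4a1 probes while samples 2 and 3 were above it. The mean at the brighter probe was 1.47 ± 1.24 (SD, n = 3; limma adjusted p = 0.243), and it was 0.91 without sample 3.

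Cd22, a sialic acid-binding receptor that damps B cell receptor signalling, read 276, 988 and 1696 in Cy5 for Plk1(+/-) samples 1, 2 and 3, against 139, 178 and 173 in Cy3 for the WT pool. Its log2 ratios of 0.08, 1.36 and 2.07 gave a mean of 1.17 ± 1.01 (SD, n = 3; limma adjusted p = 0.248), or 0.72 without sample 3. The other Cd22 probe read 0.16, 0.16 and 0.32, with the pool not well above background on any array, so it showed no more than a bound of at least 1.03-fold higher on average. Cd72, another inhibitory coreceptor, read 689, 1410 and 2473 in Cy5 for Plk1(+/-) samples 1, 2 and 3 at its brighter probe, against 254, 261 and 272 in Cy3 for the WT pool. The log2 ratios were 0.28, 1.25 and 1.87 there and 0.23, 1.26 and 1.82 at the overlapping probe. All 3 samples were above the pool at both Cd72 probes, with a mean of 1.14 ± 0.80 (SD, n = 3; limma adjusted p = 0.213) at the brighter one.

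Cr2 encodes complement receptor 2, which lowers the threshold of B cells for antigen coated with complement and is also made by follicular dendritic cells. Its A_51_P208525 probe read 118, 454 and 746 in Cy5 for Plk1(+/-) samples 1, 2 and 3, against 93.0, 117 and 129 in Cy3 for the WT pool, which was well above background on 2 of 3 arrays. The log2 ratios were -0.21, 0.94 and 1.42, with sample 1 below the pool and the other two above it, and a mean of 0.72 ± 0.84 (SD, n = 3; limma adjusted p = 0.337). With the scanner log ratio, sample 1 read 0.50 at this probe and was above the pool. The mean was 1.42 with the scanner log ratio, 1.18 without sample 1 and 0.36 without sample 3. A filter on both dyes on all 3 arrays leaves the second probe, with a mean of 0.22. The second Cr2 probe, A_52_P490788, did not show this spread: its log2 ratios were 0.33, 0.06 and 0.26, with Cy5 signals of 200, 239 and 212 in Plk1(+/-) samples 1, 2 and 3 and Cy3 signals of 101, 115 and 106 in the WT pool. Of the 5 genes with more than 1 probe, Cr2 was the one whose probes disagreed on which sample was lowest, and why was not tested.

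Blk and Pou2af1 act inside the cell. Blk, a Src-family kinase that B cells use below the receptor, read 164, 227 and 242 in Cy5 for Plk1(+/-) samples 1, 2 and 3, against 89.7, 95.9 and 92.6 in Cy3 for the WT pool, which was well above background on 2 of 3 arrays. Its log2 ratios of 0.25, 0.40 and 0.57 were the closest together among the 9 genes, a range that 57.93% of features fell below. The mean was 0.41 ± 0.16 (SD, n = 3) and the limma adjusted p of 0.176 was the lowest of the 9, while with median centring sample 1 read -0.13. The mean was 0.73 with the scanner log ratio and 0.18 with median centring. Pou2af1 encodes the B cell coactivator that joins octamer-binding factors at immunoglobulin promoters. It read 1016, 4005 and 12433 in Cy5 for Plk1(+/-) samples 1, 2 and 3, against 508, 534 and 544 in Cy3 for the WT pool, and the log2 ratios were -0.23, 1.64 and 3.09. Sample 1 was below the pool (0.06 with median centring) and sample 3 was 8.53-fold the pool, with a mean of 1.50 ± 1.66 (SD, n = 3; limma adjusted p = 0.315) that was 2.36 without sample 1 and 0.70 without sample 3.

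**Figure D2:**
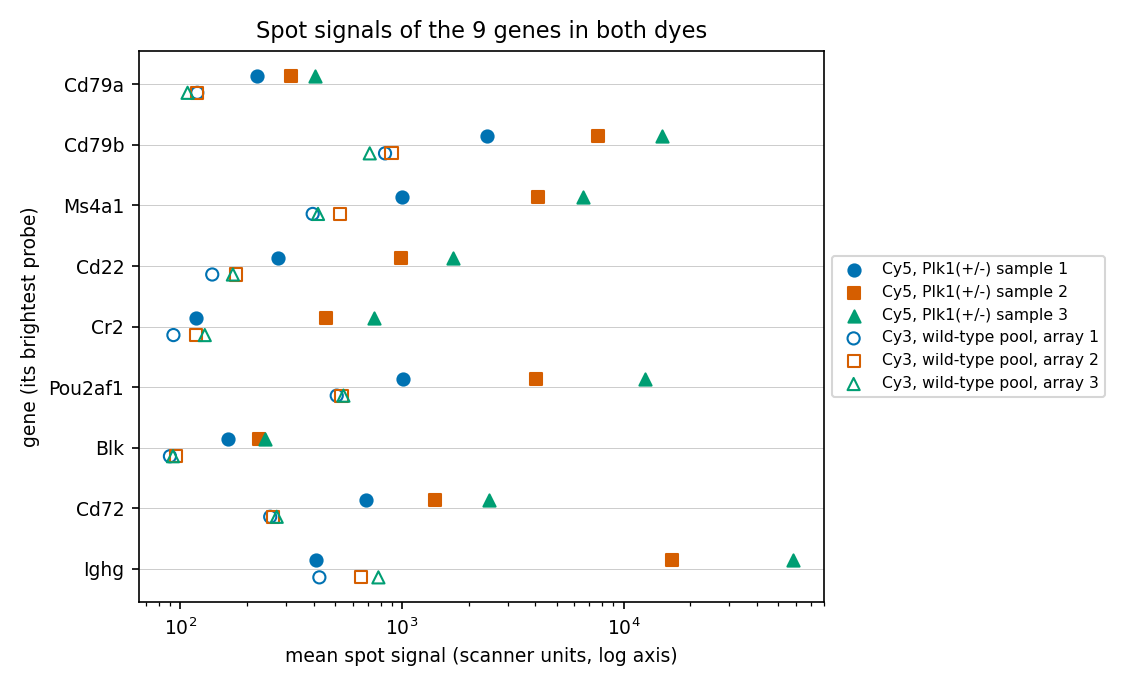
Mean signal before normalization (log axis) of the brightest probe of each of the 9 genes, with the 3 Plk1(+/-) samples in Cy5 and the WT pool in Cy3 on the same arrays. Ighg spans 407 to 58020 over the Plk1(+/-) samples and 424 to 783 over the 3 readings of the pool.

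The pool was the same RNA on every array, so its 3 Cy3 readings show how far a channel moved when the sample did not change. After normalization of both channels across arrays, the range of Ighg over arrays was 7.06 in Cy5 and 1.09 in Cy3 on the log2 scale, that of Pou2af1 3.55 and 0.23, that of Cd79b 2.56 and 0.14, and that of Cd79a 0.84 and 0.09. The Cy5 range was the wider one at 14 of 15 probes of the 9 genes, the exception being the second Cr2 probe, and at 73.4% of all 31890 kept probes without a saturated spot, whose median ranges were 0.32 in Cy5 and 0.18 in Cy3. Cy5 held 3 separate samples and Cy3 held 1 RNA read 3 times, so the design itself favours a wider range in Cy5. The readings of the pool were not equal for every gene, and Ighg read 424, 656 and 783 in Cy3, highest on the array where Cy5 was highest. The 3 probes of Ighg1, another IgG heavy chain name chosen after its values were seen, moved further in Cy3, with ranges of 1.69 to 2.67. Its probe A_51_P461067 read 116, 1261 and 22018 in Cy5 for Plk1(+/-) samples 1, 2 and 3, against 126, 147 and 535 in Cy3 for the WT pool.

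**Figure D3:**
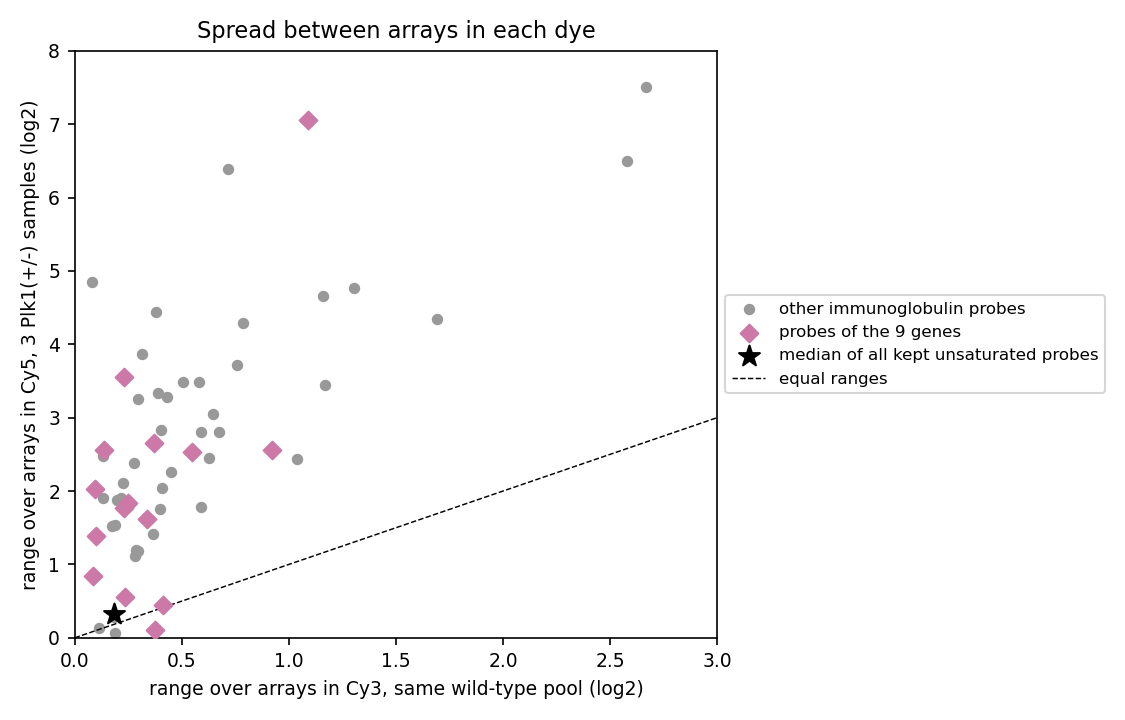
Range over the 3 arrays of the Cy5 channel, which held the Plk1(+/-) samples (y axis, log2), against that of the Cy3 channel, which held the same WT pool each time (x axis, log2). Most probes of the 9 genes and of other immunoglobulin genes lie above the line of equal ranges, and the star marks the medians of all kept unsaturated probes, 0.32 in Cy5 and 0.18 in Cy3.

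Other immunoglobulin chain genes on the array showed the same split between samples. The files name 45 probes of 22 such genes beside Ighg, and 42 probes of 21 genes passed the filter and had no saturated spot. Over these 42 probes the median log2 ratio was -0.15 in Plk1(+/-) sample 1, 1.01 in sample 2 and 1.98 in sample 3. Of them, 39 were lowest in sample 1, 23 were below the pool in sample 1 and above it in both other samples, and 36 were lowest in sample 1 and highest in sample 3. In limma 0 of 22 measured immunoglobulin chain genes, now with Ighg included, were called. At an unadjusted p under 0.05, 3 of the 21 without a saturated spot at their brightest probe were higher and 0 lower. Over all features without a saturated spot, 9.33% were higher and 8.49% lower. The pool was not well above background on any array at 5 of the 42 probes (2 of Igll1 and 1 each of Igh, Igkv1-135 and Igkv8-16), and many of these probes can share RNA of near-identical segments, so they are not separate genes in every case.

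The chain classes differed in sample 1. The 16 heavy chain probes had a median of -0.42 there and 14 of them were below the pool, with values down to -2.78. Of 16 kappa light chain probes, 11 were below the pool with a median of -0.16, while all 8 probes of Iglv1, a lambda light chain gene, were above it with a median of 0.16. The medians in sample 3 were 2.44 for heavy, 2.06 for kappa and 1.91 for lambda chain probes, and in sample 2 they were 0.68, 1.29 and 1.06. Igll1, part of the surrogate light chain of B cell precursors, is given no ratio, since the pool was not well above background on any array at its 2 probes. In sample 1 the heavy and kappa medians were below the pool, and the lambda median above it, under each of 5 scalings of the arrays. The difference between classes was not tested.

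By signal, the 4 brightest immunoglobulin genes were Igh-VJ558, Ighm, Iglv1 and Ighg. Igh-VJ558 was saturated in sample 3 at its brightest probe and is given no ratio. Ighm, the heavy chain of IgM, read -0.27, 1.06 and 1.88 in Plk1(+/-) samples 1, 2 and 3 over the WT pool. Its other kept probe, A_51_P485421, was spotted 10 times on each array and read -0.84 ± 0.07, 1.51 ± 0.05 and 2.72 ± 0.06 (SD over 10 spots). Iglv1 read 0.03, 0.28 and 1.54 at its brightest probe. For Ighm the differences between samples were far wider than the differences between spots of 1 array, which measure technical error on the array alone.

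**Figure D4:**
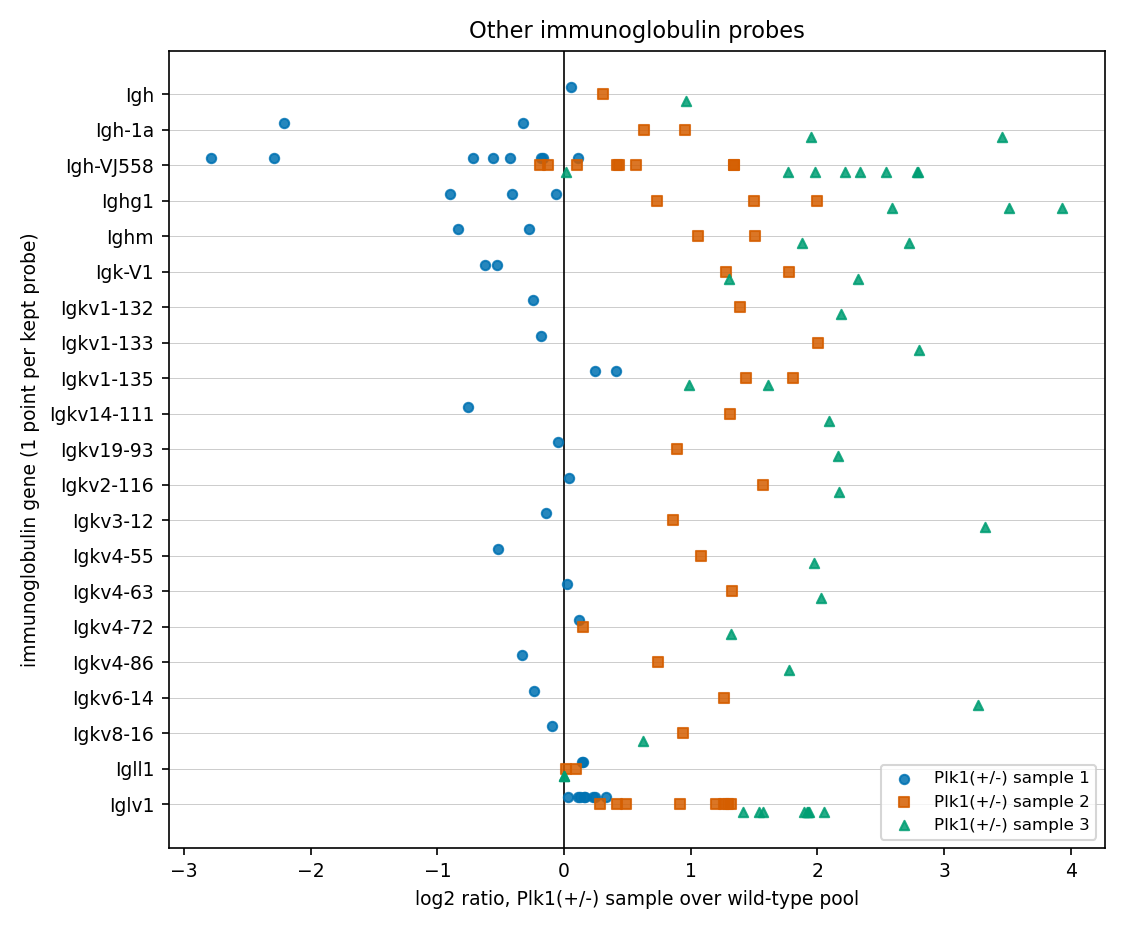
Log2 ratio over the WT pool (x axis) of each kept, unsaturated immunoglobulin probe other than Ighg, by gene (y axis), with 1 symbol for each of Plk1(+/-) samples 1, 2 and 3. The median of the 42 probes is -0.15 in sample 1, 1.01 in sample 2 and 1.98 in sample 3.

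Other genes of the pathway were read from lists of known B cell biology. Of 24 further B cell genes, all unsaturated, 0 were called, and 11 were higher and 0 lower at an unadjusted p under 0.05. Their medians were 0.01, 1.12 and 1.56 in Plk1(+/-) samples 1, 2 and 3, and 21 of 24 had the order of the 9 genes. Tnfrsf13c, the receptor for the B cell survival factor BAFF, read 0.37, 2.44 and 3.23, and Pax5, the factor that sets B cell identity, read 0.31, 1.51 and 2.34. Fcrla, an Fc receptor-like protein of B cells, read 0.39, 1.35 and 2.15, and Bcl11a, a transcription factor of lymphoid progenitors, read 0.30, 2.03 and 2.67. These values are from the brightest probe of each gene. When all kept probes of a gene were averaged, the mean log2 ratio was 0.56 against 1.39 for Pax5 and 1.12 against 1.67 for Bcl11a. It stayed at 2.01 for Tnfrsf13c and 1.30 for Fcrla. Chosen after their values were seen, Cd24a (0.78, 0.02 and -0.33) and Ebf1 (-0.03, -0.32 and -0.38), both also expressed outside B cells, ran the other way.

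Of 19 unsaturated genes of B cell receptor signalling, 0 were called and 11 were higher and 0 lower at an unadjusted p under 0.05, and all 19 had the order of the 9 genes. The medians were smaller than those of the 9, at 0.08, 0.66 and 1.21 in samples 1, 2 and 3. Pik3cd, the leukocyte PI3-kinase subunit, read 0.50, 1.07 and 1.43, and Ptprc, the pan-leukocyte phosphatase CD45, read 0.39, 1.47 and 2.12. Lyn, another Src-family kinase, read 0.28, 0.39 and 0.83, and Nfatc1, a calcium-dependent transcription factor, read 0.23, 0.24 and 0.29. When all kept probes of a gene were averaged, the mean log2 ratio was 0.53 against 1.00 for Pik3cd and 0.78 against 1.32 for Ptprc. For Lyn it was 0.33 against 0.50, and for Nfatc1 0.21 against 0.25. Class II antigen presentation genes had medians of 0.30, 0.64 and 1.27, with 7 of 10 higher and 0 lower at an unadjusted p under 0.05 and 0 called. H2-Ab1, a class II chain that B cells share with other antigen-presenting cells, read 0.51, 0.81 and 1.37.

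Plasma cell genes and germinal centre genes had smaller medians. Of 13 plasma cell genes, 0 were called and 1 was higher (Derl3, 0.26, 0.61 and 1.67 in samples 1, 2 and 3) and 1 lower (Xbp1, -0.26, -0.54 and -0.42) at an unadjusted p under 0.05. These counts are near the shares over all features without a saturated spot, 9.33% higher and 8.49% lower. The medians of the list were -0.06, 0.12 and 0.74, or 0.13, 0.18 and 0.86 with median centring. Jchain, which links IgM and IgA units, and Mzb1, which helps fold immunoglobulin, were chosen after their values were seen. Jchain read -1.02, 1.70 and 2.81 and Mzb1 read -0.40, 1.06 and 2.30, so both were below the pool in sample 1 as Ighg was. Germinal centre genes had medians of 0.09, -0.11 and 0.08 (0.21, 0.18 and 0.57 with median centring) over 7 measured genes, 1 of which had the order of the 9. Bcl6, which many cells express, read 0.99, 0.59 and 0.24.

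The median of T cell genes was high in the samples where that of the 9 genes was high. Of 18 T cell genes, 0 were called, 13 were higher and 0 lower at an unadjusted p under 0.05, and their medians of 0.13, 1.33 and 1.54 in samples 1, 2 and 3 ran close to those of the B cell genes. Their summed level was 8560, 17249 and 21749 in the Plk1(+/-) samples, against 8227 to 8558 in the WT pool, and that of the 9 genes was 4172, 21439 and 60651, against 4245 to 5301. Ighg made up much of the sum of the 9: without it the other 8 genes summed to 3902, 11687 and 24759, against 3609 to 3951. Cd3d, a T cell receptor chain, read 0.39, 2.32 and 2.66. Of the T cell genes, 1 was not well above background in the pool on any array, and none was at that level in all Plk1(+/-) samples. Without sample 1, limma called 57 of 22043 features as higher at an adjusted p under 0.05. Among the lists these were 10 of the 18 T cell, 4 of the 12 lymphoid niche and 3 of the 24 further B cell genes. Also called higher were 2 of 21 unsaturated immunoglobulin chain genes, a set that includes Ighg, and 1 of 8 NK cell genes. Of the 9, 0 were called. With median centring, limma called 9761 of 22043 features, 7152 of them as higher. Called higher there were 8 of 18 T cell, 10 of 19 receptor signalling, 6 of 10 class II and 3 of 8 NK cell genes. So were 3 of 24 further B cell, 2 of 13 plasma cell, 3 of 7 germinal centre and 2 of 12 lymphoid niche genes. Of 21 unsaturated immunoglobulin chain genes, 0 were called higher and 1 lower there. The germinal centre, lymphoid niche and NK cell lists also had 1 gene each called lower. Beyond lymphoid lists, 8 of 12 endothelial, 5 of 11 macrophage, 2 of 10 adventitial fibroblast and 0 of 11 smooth muscle genes were called higher. The part of T cells in the values of the 9 genes was not tested.

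The median of lymphoid niche genes was also above 1 in samples 2 and 3, but not all of them were high there. Of 12 measured genes of the lymphoid niche, 4 were higher and 0 lower at an unadjusted p under 0.05 and 0 were called, with medians of -0.14, 1.24 and 1.36. Their summed level was 8705, 26681 and 40726 in the Plk1(+/-) samples, against 9456 to 10518 in the WT pool, and 3 of the 12 were not well above background in the pool on any array. Ltb, a lymphotoxin chain, read 0.35, 2.27 and 2.70, and Ccr7, the receptor that guides lymphocytes to lymph nodes, read 0.28, 1.71 and 1.68. Glycam1 and Cxcl13 were chosen after their values were seen. Glycam1, a mucin-like protein made by high endothelial venules of lymph nodes, read -1.18, 2.52 and 3.85, the first from a Cy5 signal not well above background, with Cy5 signals of 94.0, 2026 and 7102 in Plk1(+/-) samples 1, 2 and 3 and Cy3 signals of 132, 162 and 195 in the WT pool. Cxcl13, the chemokine that draws B cells into follicles, read -0.29, 2.04 and 2.09. Another 5 of the 12, also singled out after their values were seen (Tnfsf13, Tnfsf13b, Il7, Madcam1 and Chst4), read between -0.18 for Chst4 and 0.30 for Il7 in samples 2 and 3, and the pool was not well above background on any array for Il7 and Madcam1. Whether lymph node tissue was present in samples 2 and 3 was not tested.

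Macrophage genes had medians of -0.06, -0.13 and 0.17 over 11 unsaturated genes, of which 1 was higher and 2 lower at an unadjusted p under 0.05. Of all features without a saturated spot, 9.33% were higher and 8.49% lower. Endothelial genes, of which 0 of 12 were higher and 1 lower at an unadjusted p under 0.05, had medians of 0.05, -0.06 and -0.20. With median centring these became 0.35, 0.24 and 0.63 for macrophage and 0.44, 0.33 and 0.25 for endothelial genes. Of 11 unsaturated smooth muscle genes, 11 were lower and 0 higher at an unadjusted p under 0.05, with medians of -0.40, -1.16 and -0.81, or 0.08, -0.80 and -0.31 with median centring. Including 3 saturated ones, 2 of 14 were called lower. Their summed level was 97439, 49467 and 86676 in the Plk1(+/-) samples, against 147009 to 153586 in the WT pool. Skeletal muscle genes had medians of -0.69, -0.95 and -2.93, so their lowest median was in the sample where the 9 genes were highest. Of the 7 unsaturated ones, 5 were lower and 0 higher at an unadjusted p under 0.05, and 0 were called. Adventitial fibroblast genes had medians of -0.28, -0.64 and -0.36, or 0.15, -0.24 and 0.14 with median centring. Of the 10 unsaturated ones, 8 were lower and 0 higher at an unadjusted p under 0.05. Including saturated ones, 1 of 12 was called lower. Red cell genes had medians of -0.49, -1.09 and -0.81. Of the 5 unsaturated ones, 4 were lower and 0 higher at an unadjusted p under 0.05. With saturated ones included, 2 of 6 were called lower. Among these was the unsaturated Slc4a1, which read -1.21, -1.36 and -1.31 (limma adjusted p = 0.0103). NK cell genes had medians of 0.29, 0.26 and 0.52, or 0.37, 0.90 and 1.42 with the scanner log ratio. Of these 8 genes, 4 were higher and 0 lower at an unadjusted p under 0.05, and 0 were called. The 3 unsaturated fat genes had medians of -0.05, 0.24 and -0.65, or 0.46, 0.72 and -0.14 with median centring. With saturated fat genes included, 5 of 10 were called lower. The part of these cell types, and that of tissue composition, in the values of the 9 genes was not tested.

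**Figure D5:**
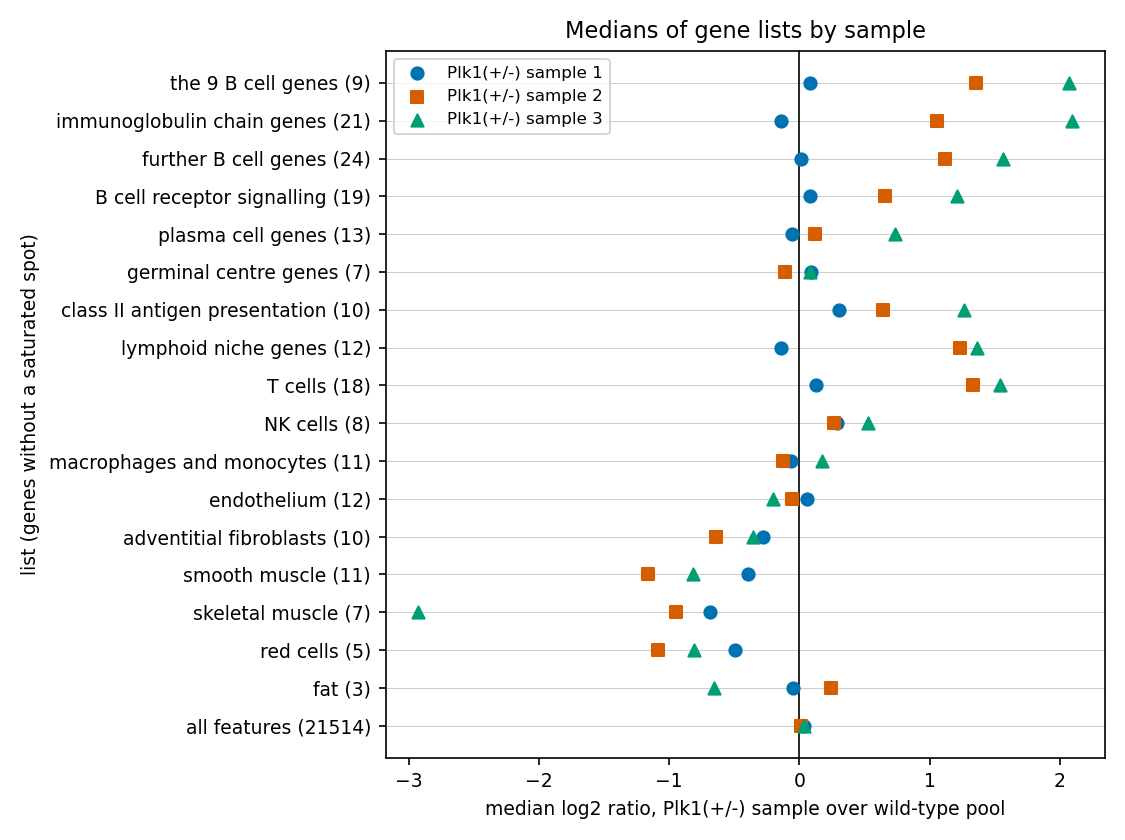
Median log2 ratio over the WT pool (x axis) of the unsaturated genes of each list (y axis) in Plk1(+/-) samples 1, 2 and 3. Lists of B cell, immunoglobulin, T cell and lymphoid niche genes have medians above 1 in sample 3, and smooth muscle and skeletal muscle genes have medians below 0 in all 3 samples, with smooth muscle at 0.08 in sample 1 under median centring.

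The 8 named features whose 3 log2 ratios lay nearest the medians of the 9 genes, by Euclidean distance over 3 arrays among 17712 unsaturated features with a plain symbol, were Stat4, Igkv4-63, 5830428M24Rik, Map4k1, Sash3, Tnfrsf13b, Hvcn1 and Spib. The distances ran between 0.07 for Stat4 and 0.21 for Spib. Stat4, a transcription factor of cytokine signalling in lymphocytes, read 0.10, 1.41 and 2.10 in samples 1, 2 and 3. Spib, an Ets-family factor of B cells, read 0.15, 1.54 and 2.14, and Tnfrsf13b, a receptor for BAFF and APRIL on B cells, read -0.01, 1.24 and 1.95. With 3 arrays that share 1 pool, nearness in this measure is a description alone.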

How the data were processed

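Total RNA was amplified and hybridised per the labels' protocols. The labels' growth protocol is one for embryonic stem cells; the tissue label, aorta, was followed. The labels name biological replicates without saying how many aortas each holds. Per the file headers, the scanner software behind the deposited intensity values was Agilent Feature Extraction, version 9.5.3.1. Mean signals, not yet background-subtracted, were used. The deposited log10 ratio of processed Cy5 over Cy3, per the file headers, and the authors' log2 series values, which hold 28817 probes and 13 of the 15 probes studied, served as alternatives. The columns of those log2 values have medians of -0.02, -0.01 and -0.03, and their centring step is not given in the sources used here.

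Normexp (offset 50) and loess within each array, giving controls no weight (0), were run in limma 3.58.1 (R 4.3.3; the data.table package was version 1.17.8). Outlier spots (100 to 136 per array) were left out and spots of a probe averaged. A probe stayed in if Cy5 or Cy3 was well above background on 2 or more arrays. The two-sided limma test (lmFit, eBayes) set each log2 ratio against 0, and p-values were Benjamini-Hochberg adjusted. The pool is 1 control sample, so its own spread is left out. Channel levels and bounds use Aquantile normalization between arrays. All 3 arrays are on 1 slide, so no slide block was possible. Names were updated through a RefSeq gene listing of GRCm38.p6, by accession for 22951 probes, current symbol for 6659 and synonym for 3109, while 2011 kept the file's name and 6444 had none.

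The members and lists were chosen with earlier results of these data known. Named genes are the 9 with all their probes, the 4 brightest immunoglobulin genes, up to 4 genes of a list by smallest unadjusted p on unsaturated probes, the 8 nearest profiles and Plk1. The test was checked on simulated ratios. Some genes that this rule takes are not reported here.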

Additional observations from a re-analysis of the deposited data

How the results depend on the processing

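The mean log2 ratio of each of the 9 B cell and immunoglobulin genes was above 0 under every alternative run that measured it, from 0.18 to 0.73 for Blk and from 1.05 to 4.03 for Ighg. The median of the 9 was 0.72 to 1.71 when each replicate was left out in turn. Calls among the 9 were 0 under all alternatives except median centring, which gave 2 and called 7152 of 22043 features as higher. The lowest limma adjusted p of the 9 without replicate 1 was 0.0577. Above the pool on all arrays were 5 of 9 with median centring, 7 with the mean of all kept probes and 9 without replicate 1. A filter on both dyes on all 3 arrays left 8 of the 9, without Blk.

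Over all features, limma made 204 calls, 172 of them at features with a saturated spot. It made 125 calls with the scanner log ratio, 9761 under median centring and 434 when arrays were weighted. Under median centring 73.3% of calls were higher against 3.92%. Without saturated features it made 0 calls (3806 at an unadjusted p under 0.05). Leaving out 1 replicate gave 0 to 175 calls: 175 without replicate 1, 0 without replicate 2 (1984 unadjusted) and 0 without replicate 3 (3096 unadjusted). The causes were not tested, apart from fewer features or arrays by construction.

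Single genes changed sign in 12 cases. With median centring the mean log2 ratio was 0.10 for S1pr2, -0.17 for Eomes, 0.014 for Cd163, 0.087 for Flt1, 0.27 for Esam, 0.31 for Kdr, 0.20 for Pecam1, 0.13 for Dpep1 and 0.0065 for Retn. Of these, Esam and Kdr passed, with limma adjusted p of 0.0412 and 0.038. Leaving out each replicate in turn gave -0.024 to 0.22 for Mef2b, -0.739 to 0.0031 for Lep and -0.068 to 0.18 for Plk1, with the change of sign without replicate 3. No paired analysis was possible because all 3 arrays share 1 pool and only 1 group has replicates. Signal over background limits Blk, Cr2 and the dimmer Cd22 and Ighg probes, where the pool was not well above background on every array.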
